A study of Mus musculus with 20 samples.

Results

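The genes described here are 9 matrix, membrane and growth factor partners of the receptor-type protein tyrosine phosphatase Ptprz1, out of 55891 gene IDs in the deposited count table. They were chosen by name, as known binding partners of Ptprz1 and the co-receptors of those partners, and not by their values. Earlier results of these data were known when they were chosen. They are the heparin-binding growth factors Ptn (pleiotrophin), Mdk (midkine) and Fgf2, the matrix glycoprotein Tnc (tenascin C), the adhesion molecules Ncam1, Nrcam and Cntn1 (contactin 1), and the transmembrane heparan sulfate proteoglycans Sdc1 and Sdc3 (syndecans). Each symbol matched 1 Ensembl gene ID. These include ENSMUSG00000025743 for Sdc3, ENSMUSG00000020592 for Sdc1, ENSMUSG00000028364 for Tnc and ENSMUSG00000039542 for Ncam1. Cells were primary renal tubular epithelial cells isolated from kidneys of mice of the strain B6.129-Ptprz1tm1Nmo and cultured in serum-containing medium with epidermal growth factor, prostaglandin E2, triiodothyronine, hydrocortisone, epinephrine and an insulin, transferrin and selenite supplement. The 20 libraries form 4 groups of 5: het control, het LPS+IFNγ, KO control and KO LPS+IFNγ. By their labels het cells are heterozygous and KO cells are knockouts for Ptprz1, so every group carries the strain's Ptprz1 allele and no wild-type group is part of the comparisons. LPS+IFNγ means 100 ng/mL bacterial lipopolysaccharide with 10 ng/mL interferon gamma for 24 h, and control cells were untreated. The labels name neither the age nor the sex of the animals.

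Ptprz1 is a chondroitin sulfate proteoglycan on the cell surface, best known from glia and neural progenitors. Pleiotrophin and midkine bind its sugar chains and core protein and lower its phosphatase activity, so that tyrosine phosphorylation of its substrates rises. Contactin 1, NrCAM and NCAM bind its extracellular part, tenascin C binds it in the matrix, and syndecans hold pleiotrophin, midkine and FGF2 at the cell surface through heparan sulfate. In kidney, midkine and tenascin C are known from injured tubules and from matrix around them, and syndecan 1 is the main syndecan of epithelia.

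Before the members, the libraries need a description. Nos2 and Gbp2, genes that interferon gamma induces, followed the stimulus label in 16 libraries. They went against it in 4: the libraries labelled het control replicate 5 and het LPS+IFNγ replicate 5 (animal 4), and KO control replicate 4 and KO LPS+IFNγ replicate 4 (animal 8). Nos2 stood at 85.3 and 199.9 CPM (a gene's count divided by the library's total count, on the usual CPM scale) in these 2 controls and had no counts in these 2 stimulated libraries. In stimulated libraries that follow the label Nos2 stood at 1494 to 3136 CPM in het and 1223 to 3400 CPM in KO cells. Gbp2 stood at 496 and 1472 CPM in the same 2 controls, against 3518 to 6925 (het) and 6435 to 11052 CPM (KO). These 2 controls were thus below the level of the label-following stimulated libraries. Animals 5 and 7 are listed under both genotypes, each with 1 library in each. Ptprz1 itself had 31 counts over all 20 libraries and none in 11. In the order of replicates it had 0, 4, 0, 3 and 0 counts in het control, 2, 4, 0, 3 and 0 in het LPS+IFNγ, 0, 0, 1, 6 and 0 in KO control and 0, 1, 0, 7 and 0 in KO LPS+IFNγ libraries. The highest counts, 6 and 7, were thus in the libraries of animal 8 labelled KO, and those of animal 4 labelled het had none. Directions between genotypes below follow the labels. The labels do not say which exons the allele is missing, so this check is limited. The comparisons were therefore fitted with all 20 libraries under their labels and with the 16 that follow the stimulus label. Those 16 were picked from stimulus genes of these same data, so a response in them is described, and not supported independently. Total counts were 12899528 to 20411411 per library.

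The label of the cells as tubular epithelium was checked against marker genes. All 8 kidney epithelium markers had counts in every library. Pax8 ran from 134 to 372 CPM and Cdh16 from 21.8 to 889 CPM, while Epcam fell to 0.155 CPM, Cdh1 to 0.388, Krt8 to 1.09 and Krt18 to 5.38 CPM in their lowest libraries (medians 20.1, 43.5, 98.8 and 66.6 CPM). Of 13 proximal tubule markers, the endocytic receptor gene Lrp2 stood at 17.3 to 261 CPM. Ggt1 reached 174, Hnf4a 190.4 and Aqp1 95.4 CPM, but their medians were 9.99, 0.685 and 1.55 CPM. The transporter genes Slc34a1, Slc5a12 and Slc22a8 and the enzyme gene Miox were each at 0 in 17 of 20 libraries. Of 13 markers of the loop of Henle to collecting duct, Pvalb, Atp6v1b1 and Foxi1 were at 0 in all 20, Scnn1a stood at 0.433 to 9.99 CPM and Wfdc2 reached 36.2 CPM (median 2.91). Of 11 fibroblast and pericyte markers, Acta2, a contractile actin, had a median of 3474 CPM, Col1a1 of 623, Col1a2 of 435, Col3a1 of 106.9 and Pdgfrb of 44.9 CPM, with Col1a1 up to 7865 CPM. In the same list Pdgfra, Dcn, Lum and Meox1 stayed at or below 2.65 CPM in every library. Animals 1 and 9, both het, stood apart, with summed CPM of 13 proximal tubule markers of 693 and 611 in their control libraries against 36.2 to 148.7 in the other control libraries, and with a summed fibroblast and pericyte list of 259 and 1720 CPM against 4388 to 19553.

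Per kilobase of exon Tnc was the most abundant member, Ncam1 and both syndecans followed, and the growth factors, Nrcam and Cntn1 were low. The mean level per kilobase over 20 libraries was 555 CPM for Tnc, 54.1 for Ncam1, 44.9 for Sdc3, 34.6 for Sdc1, 1.66 for Fgf2, 1.59 for Mdk, 0.340 for Ptn, 0.316 for Nrcam and 0.0346 for Cntn1, and 0.0066 for Ptprz1. Tnc exceeded Ncam1 in 20 of 20 libraries, and Sdc1 exceeded Fgf2 in 20 of 20, with no overlap of their ranges in either case. Ncam1 exceeded Sdc3 in 12 of 20 libraries, Sdc3 exceeded Sdc1 in 11, Fgf2 exceeded Mdk in 11 and Ptn exceeded Nrcam in 11, so these neighbours were not ordered beyond their spread. Cntn1, a glycolipid-anchored adhesion molecule and classical ligand of Ptprz1, had 114 counts in all and was too low for the test in the 20 libraries and in the 16. Its 3 libraries without a count allow at most 0.156 to 0.198 CPM (3 counts of the total, counting error only). The members also varied by different amounts between libraries: from lowest to highest, Sdc1 spanned 2.87-fold and Ncam1 6.31-fold, while Fgf2 spanned 63.5-fold and Ptn, the widest of those without a 0, spanned 90.8-fold.

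**Figure D1:**
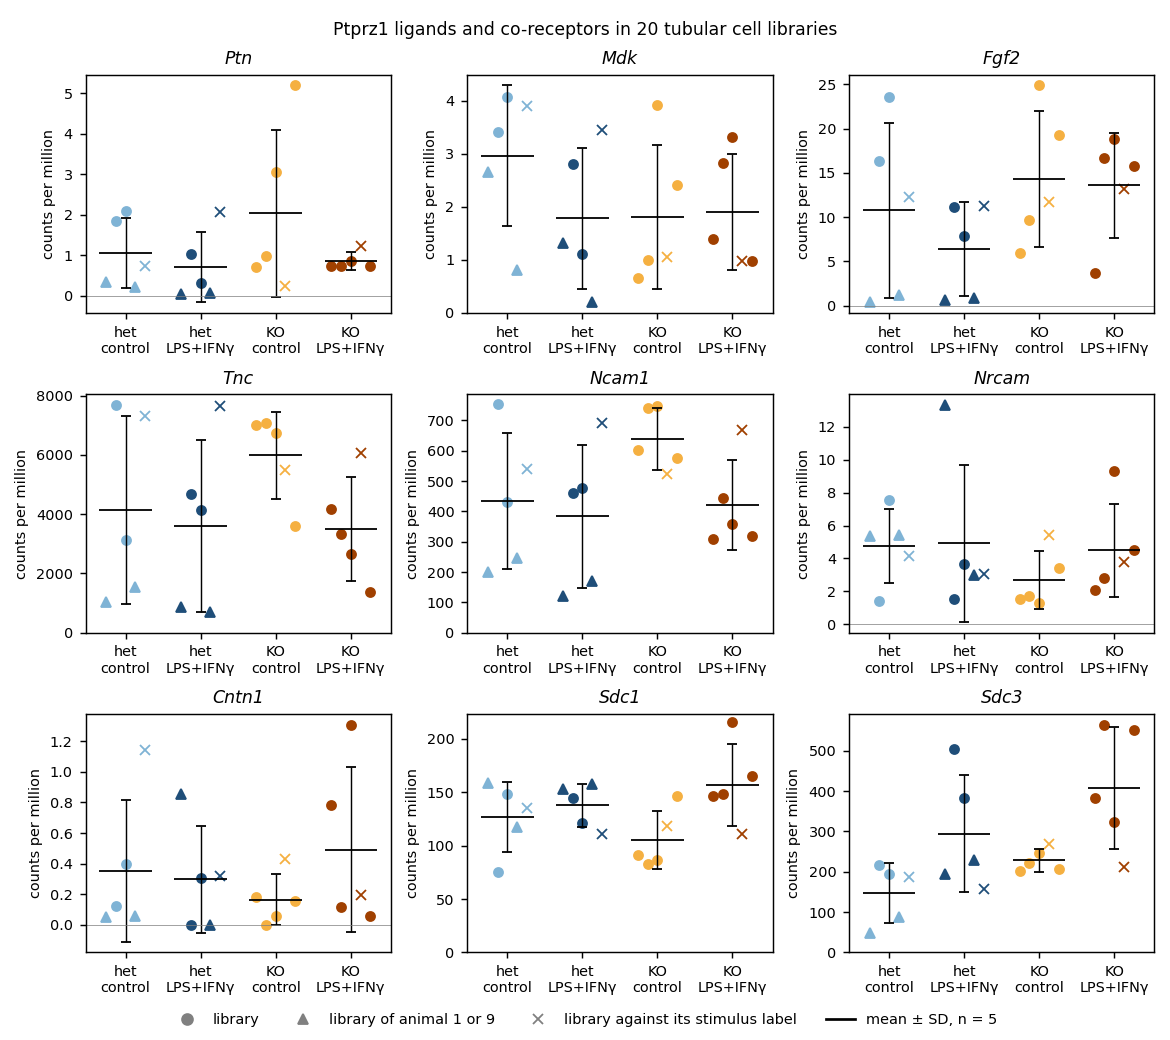
CPM (linear axes that include 0) of the 9 members in each of the 20 libraries, by group; points are libraries, triangles the libraries of animals 1 and 9, crosses the libraries against their stimulus label, and lines the mean ± SD (n = 5). In KO cells Sdc3 is at 323 to 565 CPM in the stimulated libraries other than the cross and at 201.5 to 268 CPM in control libraries, and the triangles are the 4 lowest points of Ncam1 (120 to 247 CPM).

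How the members respond to LPS+IFNγ was the first comparison. With all 20 libraries as labelled and both genotypes averaged, 0 of the 8 members tested passed an adjusted p of 0.05 (edgeR quasi-likelihood test, Benjamini-Hochberg over 14568 genes, of which 5.02% were called, 4.54% higher and 0.481% lower). The 2 syndecans came nearest, Sdc3 with a log2 fold change of 0.99 ± 0.29 (SE, adjusted p = 0.0552) and Sdc1 with 0.44 ± 0.14 (adjusted p = 0.0830). Both were at an unadjusted p under 0.05. DESeq2 called 2 members, with 8.49% of genes called, and limma-voom called no gene. In the 16 libraries that follow the stimulus label, both syndecans rose, by 1.24 ± 0.31 for Sdc3 (adjusted p = 0.0141) and 0.57 ± 0.15 for Sdc1 (adjusted p = 0.0156). No member fell there, where 10.1% of 14630 genes were called higher and 4.88% lower. The labels tie the control and the stimulated library of 8 animals together. For the overlap of ranges and the direction within animals given below, the share of all genes was not counted. With the animal as a block in the 16 libraries 5 of 8 members were called: Sdc3 and Sdc1 rose, and Ncam1, Tnc and Ptn fell, at a background of 33.4% of genes called. The same block in all 20 libraries called 0 of 14568 genes, with adjusted p = 0.104 for Sdc3, Sdc1 and Tnc, 0.106 for Ncam1 and 0.352 for Ptn. The falls of Ncam1, Tnc and Ptn thus passed with the block in libraries picked by stimulus genes, and by edgeR in neither set without it. In het and in KO cells taken alone edgeR called no gene with all 20 libraries (0%, with 1981 and 1307 genes at an unadjusted p under 0.05), DESeq2 called 483 and 115 genes and limma-voom 0. These are bulk libraries, so a change in the share of a cell type and a change in RNA per cell cannot be told apart.

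Among the secreted growth factors, Ptn had low counts and fell in the blocked fit of the 16 libraries but not without the block, and Mdk and Fgf2 did not pass the test in the 20 or the 16 libraries, with or without the block. Ptn, the ligand whose binding inhibits Ptprz1, stood at 0.343, 1.86, 2.09, 0.231 and 0.745 CPM in het control and at 0.0572, 1.04, 0.306, 0.0660 and 2.07 CPM in het LPS+IFNγ libraries (replicates 1 to 5). In KO cells it stood at 0.717, 0.993, 3.05, 0.247 and 5.19 CPM in control and at 0.726, 0.747, 0.871, 1.23 and 0.744 CPM in stimulated libraries. The ranges overlap in both genotypes. The stimulated libraries labelled het replicate 5 and KO replicate 4, both against their label, are the highest of their groups. In the 6 animals whose paired libraries follow the label Ptn was lower after stimulation in 5, with 7 counts against 1 in animal 1, 4 against 1 in animal 9, and 67 against 13 in animal 10. It was level in animal 3 (12 and 13 counts). The log2 fold change over both genotypes was −0.83 ± 0.61 in 20 libraries (adjusted p = 0.496), −1.53 ± 0.64 in 16 (adjusted p = 0.133), and −1.41 ± 0.36 with the animal block in 16 (adjusted p = 0.0173). Without animals 5 and 7 the blocked call was lost (−1.43 ± 0.45, adjusted p = 0.0535), and it rests on 386 counts in all libraries.

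Mdk, the second member of the pleiotrophin family, ranged from 0.807 to 4.06 CPM in het control, 0.198 to 3.45 CPM in het LPS+IFNγ, 0.657 to 3.91 CPM in KO control and 0.972 to 3.32 CPM in KO LPS+IFNγ libraries. The 4 ranges overlap. Its log2 fold change with stimulation was −0.26 ± 0.45 in 20 libraries and −0.36 ± 0.52 in 16 (95% interval −1.37 to 0.66), an interval that holds a fall by more than 1 log2 unit. Fgf2, a mitogen stored on heparan sulfate, ranged from 0.392 to 23.5 CPM in het control, 0.572 to 11.3 CPM in het LPS+IFNγ, 5.91 to 24.9 CPM in KO control and 3.63 to 18.8 CPM in KO LPS+IFNγ libraries. All 4 values under 3 CPM came from animals 1 and 9. Within the 6 animals that follow the label, the ratio of stimulated to control Fgf2 was 0.614 to 1.46 (median 0.695) and below 1 in 5 of 6. The log2 fold change was −0.49 ± 0.76 in 16 libraries and −0.31 ± 0.12 with the animal block (adjusted p = 0.0862).

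Tnc, a hexameric matrix protein of wounds and developing tissue, was lower after stimulation in each of the 6 animals that follow the label, from very different starting levels. In het cells it stood at 1045, 7695, 3126, 1537 and 7301 CPM in control and at 879, 4668, 4128, 706 and 7641 CPM in stimulated libraries. In KO cells it stood at 6996, 7079, 6739, 5493 and 3594 CPM in control and at 4175, 3315, 2653, 6058 and 1364 CPM in stimulated libraries. The groups overlap in both genotypes, and the highest stimulated library of each genotype is the one against its label. Within those 6 animals the ratio of stimulated to control was 0.380 to 0.842 (median 0.544), and in animals 4 and 8 it was 1.05 and 1.103. The log2 fold change over both genotypes was −0.44 ± 0.45 in 20 libraries and −0.65 ± 0.50 in 16 (adjusted p = 0.644 and 0.430). With the animal block in the 16 libraries Tnc fell by 0.69 ± 0.13 on the log2 scale (adjusted p = 0.00404). By genotype the change was −0.89 ± 0.19 in KO cells (adjusted p = 0.0187) and −0.49 ± 0.19 in het cells (adjusted p = 0.115). Of 9 tested fibroblast and pericyte markers 8 had negative log2 fold changes in the 16 libraries averaged over genotypes, with a median of −0.49 and 0 called. By the labels, 1 of 9 was positive in het cells (median −1.61) and 5 of 9 in KO cells (median 0.81), without the block. The summed list ran there from 259 to 19553 CPM in het control, 102 to 6760 in het stimulated, 4388 to 7952 in KO control and 2690 to 15093 in KO stimulated libraries. Animal 7, listed under both genotypes, gave the highest het control sum (19553 CPM) and the highest KO stimulated sum (15093 CPM). Within each of the 6 animals that follow the label the sum was lower after stimulation, in both genotypes. The part of fibroblasts and pericytes in the Tnc values was not tested.

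Of the adhesion molecules, Ncam1 fell in the blocked fit, Nrcam did not pass the test and Cntn1 was too low to test. Ncam1, which mediates adhesion between like cells and is expressed in the kidney anlage, stood at 201, 754, 430, 247 and 540 CPM in het control and at 119.6, 460, 476, 170 and 690 CPM in het LPS+IFNγ libraries. In KO cells it stood at 604, 742, 747, 523 and 577 CPM in control and at 307, 445, 360, 667 and 319 CPM in stimulated libraries. In the 4 KO libraries per group that follow the label the ranges do not overlap, whereas the het ranges do. The ratio of stimulated to control Ncam1 was 0.509 to 0.690 (median 0.594) in the 6 animals that follow the label and 1.28 in both animals 4 and 8. Its log2 fold change was −0.34 ± 0.30 in 20 libraries and −0.58 ± 0.33 in 16 (adjusted p = 0.586 and 0.286). With the animal block Ncam1 fell by 0.59 ± 0.07 (adjusted p = 0.000346), and in each genotype (adjusted p = 0.0162 in het and 0.00280 in KO cells). Ncam1 is also a gene of neurons and Schwann cells, whose markers Sox10, S100b and Rbfox3 were at 0 in 17, 19 and 18 of 20 libraries, while Tubb3, a neuronal tubulin, rose by 3.36 ± 0.51 in the 16 libraries (adjusted p = 0.000325).

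Nrcam, an L1-family molecule that binds contactins and Ptprz1, was low and ranged from 1.42 to 7.56 CPM in het control, 1.56 to 13.3 in het LPS+IFNγ, 1.26 to 5.43 in KO control and 2.07 to 9.31 in KO LPS+IFNγ libraries. All 4 ranges overlap. It was higher after stimulation in 5 of the 6 animals that follow the label (ratio 0.549 to 2.47, median 1.33), with a log2 fold change of 0.80 ± 0.47 in 16 libraries (adjusted p = 0.294) and 0.61 ± 0.25 with the animal block (adjusted p = 0.0952), and was not called in these fits. Cntn1 had at most 24 counts in a library, in KO LPS+IFNγ replicate 3, and stood between 0 and 1.31 CPM. In 3 of the 6 animals it was higher and in 3 lower after stimulation.

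Both syndecans rose in the 16 libraries, with and without the block. Sdc3, best known from neurons and muscle, where it acts as the pleiotrophin co-receptor, stood at 47.9, 217.8, 193.4, 87.8 and 187.0 CPM in het control and at 195.3, 503.5, 382.7, 230.5 and 157.5 CPM in het LPS+IFNγ libraries. In KO cells it stood at 201.5, 221.8, 246.2, 268.0 and 205.8 CPM in control and at 383.9, 565.2, 323.1, 211.1 and 552.5 CPM in stimulated libraries. Apart from the libraries against their label, each stimulated KO library is above each KO control library. The het groups overlap only through animal 1, whose stimulated library (195.3 CPM) lies below the control library of animal 2. Within the 6 animals that follow the label Sdc3 was higher in all 6, with a ratio of 1.91 to 4.08 (median 2.47), and in animals 4 and 8 the ratio was 0.843 and 0.788. With the animal block the rise was 1.31 ± 0.15 on the log2 scale (adjusted p = 0.000403), 1.502 ± 0.233 in het and 1.11 ± 0.23 in KO cells (adjusted p = 0.00425 and 0.0151). Without the block the 16 libraries gave 1.36 ± 0.44 in het and 1.12 ± 0.44 in KO cells, neither past the threshold (adjusted p = 0.0826 and 0.192). In the unblocked 16 libraries the averaged rise was called whichever single library was left out (1.08 to 1.42, adjusted p at most 0.0321). It was not called without animals 5 and 7 (1.37 ± 0.39, adjusted p = 0.0577).

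Sdc1, the epithelial syndecan, is shed from the cell surface by metalloproteinases. It stood at 158.7, 75.3, 148.2, 117.6 and 135.1 CPM in het control and at 152.8, 144.7, 121.6, 157.8 and 111.1 CPM in het LPS+IFNγ libraries. In KO cells it stood at 90.9, 82.5, 86.4, 118.6 and 146.4 CPM in control and at 146.1, 148.2, 215.9, 110.5 and 164.7 CPM in stimulated libraries. The het groups overlap over most of their range, and among KO libraries that follow the label the groups meet at 146 CPM. Within animals the ratio was 0.963 to 1.92 (median 1.47) and above 1 in 5 of 6, and in animals 4 and 8 it was 0.822 and 0.932. In KO cells Sdc1 was called in the 16 libraries without the block (0.81 ± 0.21, adjusted p = 0.0327), where 5.76% of genes were called (4.81% higher and 0.95% lower) and Sdc1 was the only member called. Of the leave-one-out fits 6 of 16 lost that call (adjusted p up to 0.122): those without KO control replicate 1, 2 or 3 and those without KO LPS+IFNγ replicate 2, 3 or 5. In het cells the unblocked change was 0.34 ± 0.21 (adjusted p = 0.377, with 0 of 8 members called and 7.15% of genes, 5.67% higher and 1.48% lower). Both unblocked changes include animals 5 and 7, which are listed under both genotypes. Animal 7 gave 148.2 CPM to het control and 215.9 CPM to KO stimulated libraries. Animal 5 gave 82.5 CPM to KO control and 121.6 CPM to het stimulated libraries. With the block the rise of Sdc1 was 0.57 ± 0.15 for het cells and 0.64 ± 0.15 for KO cells (adjusted p = 0.0312 and 0.0236), where 18.6% and 13.5% of genes were called. The averaged call of Sdc1 without the block was lost when animals 1 and 9 were left out of the 16 (0.59 ± 0.19, adjusted p = 0.0639), while Sdc3 passed there (1.17 ± 0.17, adjusted p = 0.000798).

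**Figure D2:**
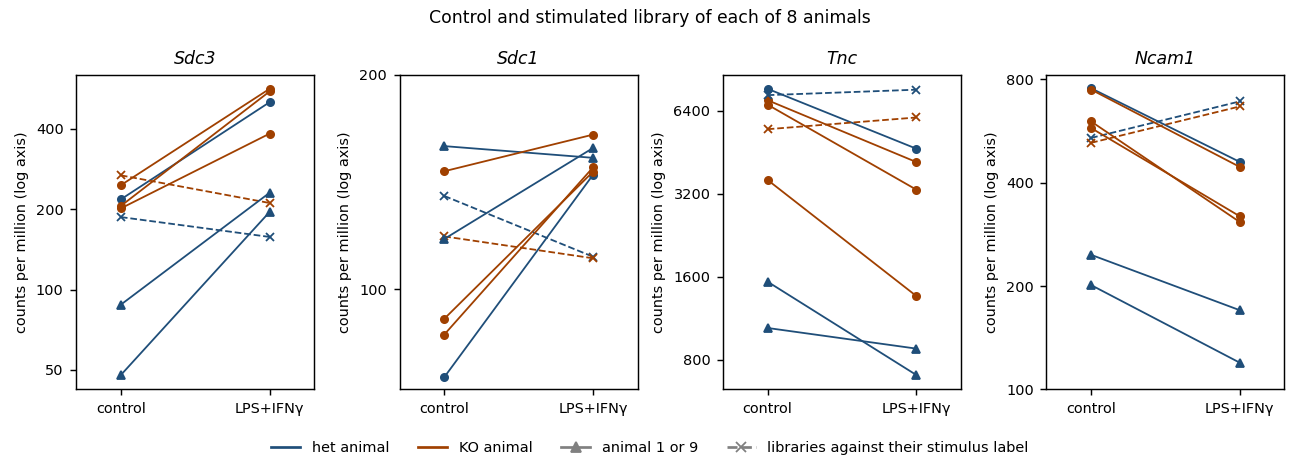
CPM (log axes) of Sdc3, Sdc1, Tnc and Ncam1 in the control and the LPS+IFNγ library of the 8 animals with both libraries in 1 genotype; each line is an animal, blue het and brown KO, and dashed lines are animals 4 and 8, whose libraries go against their label. The 6 solid lines all rise for Sdc3 (ratio 1.91 to 4.08) and all fall for Tnc (0.380 to 0.842) and Ncam1 (0.509 to 0.690).

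**Figure D3:**
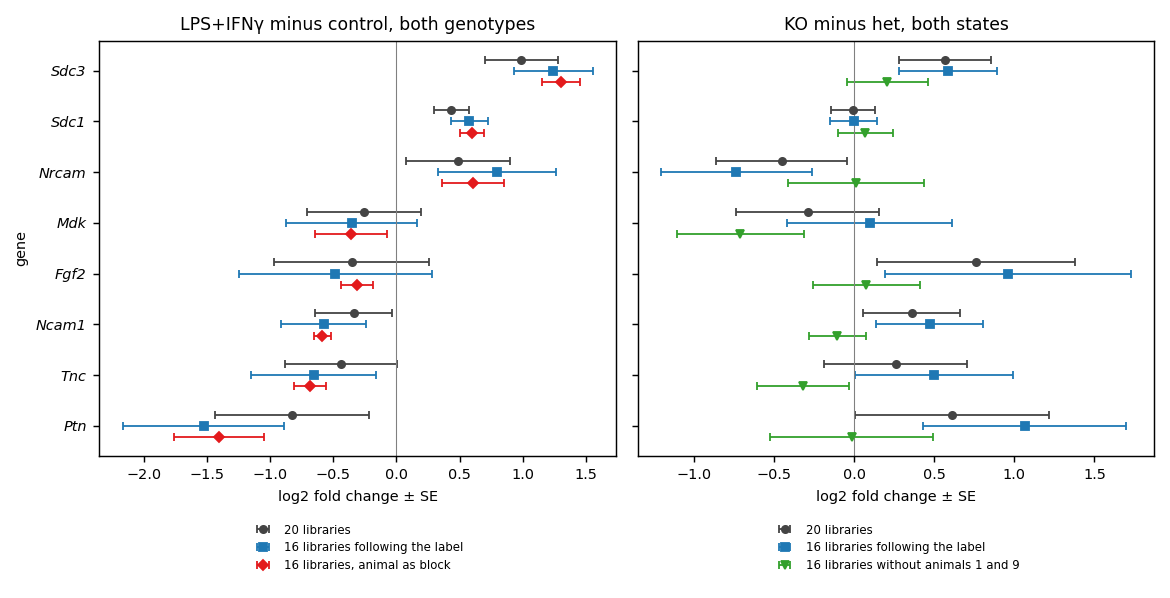
Log2 fold changes ± SE of the 8 members tested, for LPS+IFNγ minus control (left) and KO minus het (right), from edgeR in the library sets named in the legend. On the left Sdc3 (0.99 to 1.31) and Sdc1 (0.44 to 0.60) lie above 0 in all 3 fits, and on the right Tnc, Ncam1 and Ptn lie above 0 with animals 1 and 9 and at or below 0 without them.

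The promoters of the 2 syndecans and of Tnc are shown because both syndecans rose and Tnc fell in the blocked fit of the 16 libraries. They are the 250 bases upstream of an annotated start, 5′ to 3′ on the gene's strand, from RefSeq on GRCm38.p6 (the submitters' processing notes name GRCm39 for the counts, which carry no coordinates). Capitals mark a match to an NF-kB motif, and 7 of the 9 members had an entry.
Sdc3, chr4:130792287-130792536, plus strand: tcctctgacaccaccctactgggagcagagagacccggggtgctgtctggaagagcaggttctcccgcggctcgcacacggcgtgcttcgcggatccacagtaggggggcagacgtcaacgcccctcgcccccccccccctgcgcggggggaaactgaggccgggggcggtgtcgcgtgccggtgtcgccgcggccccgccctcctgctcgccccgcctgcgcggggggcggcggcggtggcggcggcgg
Sdc1, chr12:8771146-8771395, plus strand: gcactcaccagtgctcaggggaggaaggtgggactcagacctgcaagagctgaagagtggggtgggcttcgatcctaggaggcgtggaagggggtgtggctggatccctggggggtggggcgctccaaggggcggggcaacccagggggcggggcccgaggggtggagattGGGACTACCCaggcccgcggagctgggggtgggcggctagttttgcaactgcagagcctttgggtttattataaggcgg
Tnc, chr4:64047016-64047265, minus strand: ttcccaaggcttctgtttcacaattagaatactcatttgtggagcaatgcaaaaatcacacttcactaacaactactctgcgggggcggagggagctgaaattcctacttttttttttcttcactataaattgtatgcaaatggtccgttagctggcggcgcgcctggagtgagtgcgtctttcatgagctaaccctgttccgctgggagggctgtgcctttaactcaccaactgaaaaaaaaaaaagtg
The motifs described here, searched on both strands, were ISRE (GAAA, any 2 bases, GAAA, in 2.98% of 32851 windows of this length), NF-kB (GGGA, any 4 bases, CC, in 17.6%) and AP-1 (TGANTCA, in 6.75%). The motifs were counted separately and overlaps between them were allowed. In the windows of the 7 members the only matches to these motifs were to NF-kB, in Sdc1 at 79 to 70 bases and in Nrcam at 47 to 38 bases upstream of the start. Sdc3 and Tnc held no match to them, which says only that these letters are not in the window. Tnc had a further annotated start, whose window (chr4:64046937-64047186) is not printed and held no match to them either.

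Whether loss of Ptprz1 alters its own ligands was the second comparison. No member and no gene was called between KO and het cells in either state, averaged over both, or in the difference of the responses (edgeR, 0% of 14568 genes called in each; 499, 366, 801 and 138 genes were at an unadjusted p under 0.05). DESeq2 called 2, 0, 28 and 1 genes and 0 members, and limma-voom called 0 genes. All these fits follow the labels, which place animals 5 and 7 in both genotypes and animal 8, with the highest Ptprz1 counts, in KO. The absence of calls thus concerns the labelled genotypes. Averaged over both states, the log2 difference of KO minus het was 0.57 ± 0.29 for Sdc3, 0.76 ± 0.62 for Fgf2, 0.61 ± 0.61 for Ptn, 0.36 ± 0.30 for Ncam1, 0.26 ± 0.45 for Tnc, −0.29 ± 0.45 for Mdk and −0.45 ± 0.41 for Nrcam. For Sdc1 it was −0.01 ± 0.14, with a 95% interval of −0.28 to 0.27, the narrowest of the members. Sdc3 was the only member with an interval just above 0 (0.01 to 1.13, adjusted p = 0.852). This fit takes the 2 libraries of an animal as independent. Their consensus correlation (limma) was 0.458 in the 20 and 0.577 in the 16 libraries. The errors and intervals of the averaged genotype difference, here and below, may therefore be too narrow. In the 16 libraries that follow the stimulus label the differences were 0.59 ± 0.31 for Sdc3, 0.96 ± 0.77 for Fgf2, 1.07 ± 0.63 for Ptn, 0.47 ± 0.33 for Ncam1, 0.50 ± 0.50 for Tnc, −0.73 ± 0.47 for Nrcam and −0.004 ± 0.146 for Sdc1. Mdk turned to 0.10 ± 0.52 there. Over the alternatives other than leaving out 1 library the values ran from 0.03 to 1.67 for Fgf2, −0.02 to 1.36 for Ptn, −0.91 to 0.01 for Nrcam and −0.71 to 0.15 for Mdk.

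In control cells alone, mean Tnc was 5980 ± 1479 CPM for the KO label and 4141 ± 3163 CPM for the het label, mean Ncam1 was 639 ± 101 and 434 ± 225 CPM, and mean Sdc3 was 229 ± 28.1 and 147 ± 74.3 CPM (SD, n = 5 each). Among the 4 libraries per group that follow the stimulus label these means were 6102 ± 1678 and 3351 ± 3029 CPM for Tnc, 668 ± 89.7 and 408 ± 251 CPM for Ncam1, and 219 ± 20.2 and 137 ± 81.8 CPM for Sdc3, KO first. The lowest 2 het control libraries of all 3 genes were those of animals 1 and 9. Without animals 1 and 9 the averaged KO minus het difference became −0.32 ± 0.29 for Tnc, −0.10 ± 0.18 for Ncam1, −0.02 ± 0.51 for Ptn, 0.21 ± 0.25 for Sdc3, 0.08 ± 0.33 for Fgf2 and −0.71 ± 0.40 for Mdk, with 0 of 14707 genes called (0%). The sign of Tnc and Ncam1 thus turned, Ptn lay at about 0, and Sdc3 and Fgf2 lay nearer 0. Nrcam and Sdc1 moved from below 0 to just above it. In the 12 of these libraries that follow the stimulus label Tnc and Ncam1 were again below 0 (−0.25 ± 0.34 and −0.13 ± 0.17), Ptn was above it (0.22 ± 0.51) and Sdc3 was at 0.04 ± 0.17. Animals 1 and 9 are both het, so in the comparison with them the culture and the genotype cannot be told apart.

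The response itself was set side by side between genotypes by the interaction term. In the 16 libraries that follow the label, the KO response minus the het response was −0.24 ± 0.61 for Sdc3 (95% interval −1.44 to 0.96), 0.46 ± 0.29 for Sdc1 (−0.11 to 1.03), −0.76 ± 0.99 for Tnc and −0.53 ± 0.67 for Ncam1 (adjusted p = 1 for each). With the animal block in the 12 libraries of animals that have both states in 1 genotype and follow their label, it was −0.42 ± 0.28 for Sdc3, 0.05 ± 0.23 for Sdc1, −0.42 ± 0.29 for Tnc and −0.25 ± 0.14 for Ncam1 (adjusted p = 0.910 or above). These intervals are wide, so they do not show that the genotypes respond alike.

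Tnc, Ncam1, Fgf2 and Sdc3 were also low in 2 cultures. In the control libraries of animals 1 and 9, Tnc was 1045 and 1537 CPM, below the 3126 to 7695 CPM of the other 8. Ncam1 was 201 and 247 against 430 to 754 CPM, Fgf2 0.392 and 1.21 against 5.91 to 24.9 CPM, and Sdc3 was 47.9 and 87.8 against 187 to 268 CPM. None of these ranges overlap, but the share of all genes that separate these cultures in this way was not counted. After stimulation Tnc (706 and 879 against 1364 to 7641 CPM), Ncam1 and Fgf2 again did not overlap, Ptn did not either (0.0572 and 0.0660 against 0.306 to 2.07 CPM), and Sdc3 did overlap (195 and 230 against 157 to 565 CPM). These 2 low Ptn values are 1 count each. Their exact 95% upper limits of counting error, 0.319 and 0.368 CPM, lie above 0.306 CPM, so counting does not resolve the separation of Ptn. Sdc1 overlapped in both states and so did Mdk, and Nrcam was 5.39 and 5.42 CPM in these controls within the 1.26 to 7.56 CPM of the others. The same 2 control cultures had the highest sums of kidney epithelium markers (1893 and 2041 CPM, the others 418 to 1285 CPM) and of leukocyte markers (95.6 and 359 CPM, the others 5.79 to 21.6 CPM), and the lowest sums of fibroblast and pericyte markers. These animals were singled out after their values were seen, from the tubule and epithelium markers, and the part of cell composition in the members' levels was not tested.

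**Figure D4:**
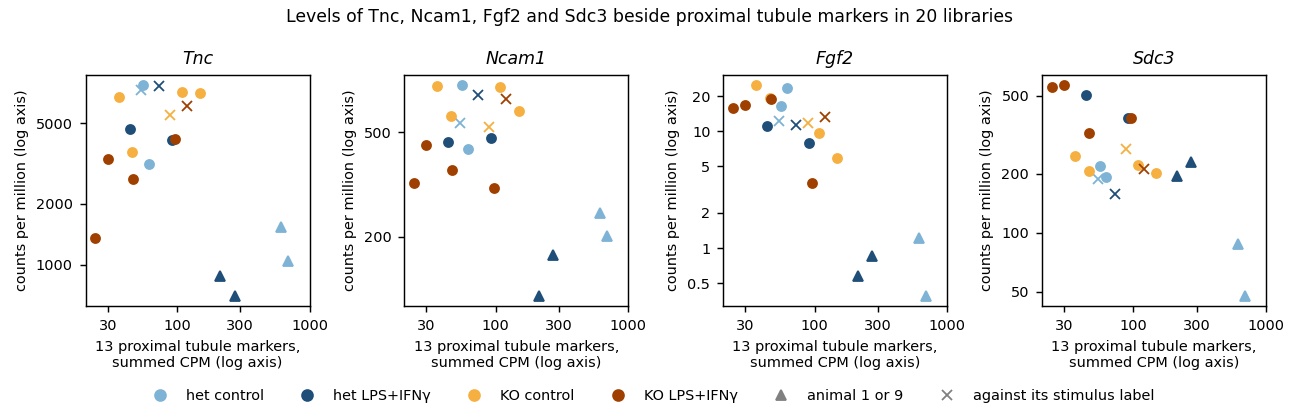
CPM of Tnc, Ncam1, Fgf2 and Sdc3 (vertical, log axis) against the summed CPM of 13 proximal tubule markers (horizontal, log axis) in 20 libraries; colours are groups, triangles the libraries of animals 1 and 9 and crosses the libraries against their stimulus label. The 4 triangles lie at the right, and for Ncam1 (120 to 247 CPM) and Fgf2 (0.392 to 1.21 CPM) below all other libraries.

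Apart from animals 1 and 9, members were compared with each other over the 8 other animals in each state. Of 56 relations, 1 passed an exact permutation test with Benjamini-Hochberg adjustment: Ncam1 and Nrcam in control libraries, with Pearson r = −0.932 (p = 0.000496, adjusted p = 0.0278, two-sided, n = 8) and Spearman rho = −0.952 (exact permutation p = 0.00114, adjusted p = 0.0639). Without the 2 libraries farthest from the median of Ncam1 r was −0.872, and in the 6 libraries that follow their stimulus label it was −0.928. In the stimulated libraries of the same 8 animals the pair had r = −0.137 and rho = −0.024 (exact permutation adjusted p = 0.863 and 1). Tnc and Ncam1 had r = 0.7096 in control libraries (exact permutation adjusted p = 0.235).

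The genes whose log2 CPM ran closest to each member over the 20 libraries, among 12123 genes, were found by Pearson r, as a description in which the points share their cultures, depth and stimulus. For Tnc they were Pdgfc (r = 0.977), a growth factor for mesenchymal cells, Palld (0.963), an actin scaffold protein, and Fn1 (0.957), fibronectin. For Ncam1 they were Palld (0.978), Pdgfc (0.969) and the tetraspanin gene Tspan2 (0.959). Fgf2 ran closest to Lrp1 (0.973), an endocytic receptor that also binds midkine, Rcn3 (0.972) and Bgn (0.969), the small matrix proteoglycan biglycan. Ptn ran closest to Ltbp3 (0.929), Kank2 (0.926) and Fam13c (0.922). Among the 16 libraries without animals 1 and 9, Tnc and Pdgfc kept r = 0.960 and Fgf2 and Bgn 0.959. Fgf2 and Rcn3 dropped to 0.828 and Ncam1 and Tspan2 to 0.843. The syndecans had other neighbours. Sdc3 ran closest to Leprotl1 (0.948), Stx11 (0.944) and Rnd3 (0.933), and Sdc1 to Slc16a1 (0.871), a lactate transporter, Lama4 (0.863), a laminin chain gene, and Dtx4 (0.862). Mdk ran closest to Enpep (0.904), aminopeptidase A, Kdm5c (0.856) and Hoxa11 (0.855), and Nrcam to March7 (0.824), Stxbp5 (0.823) and Abcb1b (0.809). By Spearman's rho 2 of these 3 genes stayed among the nearest for Ncam1 and for Mdk, and none for Fgf2 and for Sdc1.

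The rest of the pathway was read from 7 lists chosen by name, in the averaged stimulus comparison of the 16 libraries, against a median log2 fold change of −0.02 over all genes and 15.0% of genes called. Of 17 tested receptors and co-receptors of pleiotrophin and midkine, 0 rose and 2 fell: Lrp6, a Wnt and midkine co-receptor (−0.59 ± 0.10, adjusted p = 0.000919), and Ptprs, a phosphatase that binds heparan sulfate and chondroitin sulfate (−0.44 ± 0.13, adjusted p = 0.0310), with a list median of −0.36. Of 15 syndecans, glypicans and their sheddases and partners, 4 rose and 0 fell, with a list median of 0.19. They were Cask (0.70 ± 0.07, adjusted p = 5.33e-06) and Sdcbp (0.35 ± 0.10, adjusted p = 0.0224), scaffold proteins that bind the syndecan tail, and the proteases Adam17 (0.40 ± 0.07, adjusted p = 0.00121) and Mmp7 (3.44 ± 1.01, adjusted p = 0.0334), which can release syndecan ectodomains. Cask and Adam17 were also called in all 20 libraries (0.46 ± 0.12 and 0.30 ± 0.08, adjusted p = 0.0384 and 0.0337), as was Lrp6 (−0.42 ± 0.11, adjusted p = 0.0343).

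In the synthesis of heparan sulfate and chondroitin sulfate, the chains that carry these ligands, 2 of 34 genes rose and 6 fell, with a list median of −0.10. Hpse, the heparanase that cleaves heparan sulfate, rose by 3.49 ± 0.55 (adjusted p = 0.000489, and by 3.07 ± 0.64 in all 20 libraries, adjusted p = 0.0121). The sulfotransferase genes Hs6st1 and Hs3st1 fell (−0.41 ± 0.07 and −0.85 ± 0.16, adjusted p = 0.000623 and 0.0017). Of 17 FGF ligands, receptors and binding proteins 1 rose and 3 fell, with a list median of −0.25. The epithelial mitogen Fgf7 rose by 1.94 ± 0.46 (adjusted p = 0.00962). Fgf18 (−2.14 ± 0.23, adjusted p = 1.05e-05), the receptor gene Fgfr2 (−1.27 ± 0.32, adjusted p = 0.0153) and Fgf1 (−1.95 ± 0.57, adjusted p = 0.0331) fell. Fgf18 was called in all 20 libraries too (−1.54 ± 0.33, adjusted p = 0.0141).

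Of 4 tested contactin and L1-family genes L1cam fell (−1.51 ± 0.22, adjusted p = 0.000184, and −1.04 ± 0.28 in all 20 libraries, adjusted p = 0.0391) and the contactin-associated Cntnap1 rose (0.64 ± 0.19, adjusted p = 0.0305), with a list median of −0.91. None of 8 tenascins and tenascin receptors was called, with a list median of −0.28 and the integrin gene Itgav lowest in p (−0.36 ± 0.18, adjusted p = 0.224). Of 11 substrates and partners of the phosphatase Git1 rose (0.32 ± 0.10, adjusted p = 0.0359) and Magi1 fell (−0.38 ± 0.12, adjusted p = 0.0423), and the list median was −0.05. Between KO and het cells 0 genes of any of the 7 lists were called in 20 or in 16 libraries.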

How the data were processed

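Total RNA of 20 cultures was sequenced from directional libraries. The deposited values are estimated counts per gene for each library, which per the submitters' processing notes involved FastQC 0.11.9, Salmon 1.10.2, R 4.4.1, DESeq2 1.45.3 and the build GRCm39, whose roles are not given there. All values were whole numbers, and no rounding changed them. Total counts of 12899528 to 20411411 set the precision, and limits from 0 counts (3 counts of the total) cover counting error only. Gene symbols and exon lengths came from a GRCm38 annotation and gave a symbol to 51425 of 55891 gene IDs.

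Counts were fitted with edgeR 4.0.16 in R 4.3.3 (TMM scaling, filterByExpr, robust quasi-likelihood, 4 group means, 7 contrasts), with Benjamini-Hochberg adjustment over all genes tested, a threshold of 0.05, and the standard error of a log2 fold change taken from its F statistic (95% interval 1.96 standard errors). DESeq2 1.42.0, limma 3.58.1, other filters, leaving out each library, and animal blocks were alternatives. On simulated counts of the 20 libraries, 85.8% of 197 genes changed by a log2 fold change of 2 were recovered in the averaged stimulus contrast over 14384 genes. The simulated libraries all followed their labels and held no animal effect, so this share does not carry over to smaller changes in the real libraries. Relations between members used SciPy 1.17.1. The animal numbers in the labels pair the libraries, and deviations from the group means correlated by −0.30 to 0.62 in the 10 pairs, negatively in animals 4 and 8. The other 8 animals were all above 0.1.

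The members and gene lists were chosen with earlier results of these data known. Named were all members, up to 3 called genes of each list by lowest p (otherwise the 1 with the lowest p), and the 3 genes nearest to each member with a mean of at least 1 CPM by Pearson r of log2(CPM + 0.1). Mmp7 and Fgf1 were added after their values were seen. Promoters were taken from RefSeq, and 1 searched motif is not reported here. No column of the count table was left unused.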

Additional observations from a re-analysis of the deposited data

Results flagged for a closer look

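In 36 groups of 5 libraries (9 members in 4 groups), 2 held a library far from the other 4, where chance alone flags about 1 in 20 groups. Ptn in KO LPS+IFNγ replicate 4 stood at 1.23 CPM against 0.726 to 0.871 CPM in the other 4, a gap of 0.714 of the group's range (limit 0.71). This library goes against its stimulus label. Nrcam in het LPS+IFNγ replicate 1, from animal 1, stood at 13.3 CPM against 1.56 to 3.67 CPM, a gap of 0.821 of the range.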

How the results depend on the processing

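The library set and the animal block moved the number of members called, and other settings rarely did. Members called are given with the share of all genes called. In the stimulus comparison averaged over genotypes (0 called with all 20 libraries, 5.02%), DESeq2 called 2 (8.49%), the 16 libraries that follow their label 2 (15.0%), a random animal block (limma) 2 (13%), the animal as a block in 12 libraries 4 (27.1%) and in 16 libraries 5 (33.4%), and the 12 libraries that follow their label without animals 1 and 9 called 1 (15.5%). In het cells (0 called, 0%) the counts were 2 with the block in 12 libraries (16.2%), 3 with the block in 16 (18.6%) and 1 without animals 1 and 9 in 12 (4.2%). In KO cells (0 called, 0%) they were 1 in the 16 libraries (5.76%), 3 and 4 with the block in 12 and 16 (11.3% and 13.5%), and 3 in the 12 without animals 1 and 9 (13.2%). Within the 16 libraries, het cells had 1 member called by DESeq2 (11.4%), 3 with the block and 2 with the random block (21.6%), KO cells 4 and 2 (14.2%), and the average 5 and 4 (35.1%). Leaving out each library gave 0 to 2 members called in the average of 20 libraries, with 2 only without het LPS+IFNγ replicate 5 or KO LPS+IFNγ replicate 4, and 2 to 3 in that of the 16. In the 16 it gave 0 to 1 for het cells and for KO cells, with 1 for het cells only without het control replicate 2. The number of all genes called in the average was 732, against 1237 by DESeq2, 0 by limma-voom, 466 with no filter, 2191 in the 16 libraries, 0 with the block in all 20, 4883 with it in the 16, and 380 to 1558 leaving out each library.

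The averaged KO minus het log2 difference turned its sign without animals 1 and 9 for Ptn (−0.017), Tnc (−0.32), Ncam1 (−0.10), Nrcam (0.011) and Sdc1 (0.069), and in the 12 label-following libraries without them for Tnc (−0.25), Ncam1 (−0.13) and Sdc1 (0.077). Mdk turned to 0.096 in the 16 libraries and 0.15 in 12, and the het response of Ptn to 0.073 without animals 5 and 7. Leaving out each library gave −0.084 to 0.045 for Sdc1 (KO minus het), −0.58 to 0.24 for Tnc and −0.40 to 0.22 for Ncam1 in the het response (−0.73 to 0.62 and −0.63 to 0.24 in the 16), and −0.44 to 0.075 for Sdc3 in the difference of responses. The cause of these changes was not tested. Depth limits Ptn, Cntn1 and Ptprz1 most, with 386, 114 and 31 counts in all.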
